A study of Mus musculus with 6 samples.

Results

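The cytosolic ribosome is built from a small subunit, which reads the mRNA, and a large subunit, which joins the amino acids, and each subunit holds ribosomal RNA and many proteins. The genes of these proteins carry names that begin with Rps for the small and Rpl for the large subunit. Genes whose name in the count table was Rpl or Rps followed by a digit were taken, without names that hold "-ps" (pseudogenes) and without the Rps6k kinases. This gave 89 of the 55421 genes in the table, of which 52 carried a large-subunit and 37 a small-subunit name. They lie on 19 chromosomes.

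RNA was sequenced from C2C12 cells, a mouse myoblast line that fuses into myotubes in low serum, at differentiation day 4. All cells were stably selected with G418 after transfection with a plasmid that carries CTG repeats in the 3′ untranslated region of *GFP*. The CUG5 or normal group has 5 repeats and models a healthy cell, and the CUG200 or DM1 group has 200 repeats and models myotonic dystrophy type 1, a muscle disease in which RNA with expanded CUG repeats traps splicing factors. Each group has 3 libraries. The study calls them biological replicates but does not say whether they came from separate cultures or transfections, so the p-values measure the spread between these libraries, and a difference between the 2 cell pools cannot be told apart from one between the repeat lengths.

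Ribosomal protein mRNAs are short, abundant and present in nearly all cells, and cells are known to make the proteins of both subunits in like amounts. Many of these mRNAs begin with a terminal oligopyrimidine tract, a C followed by further pyrimidines at the 5′ end through which the mTOR pathway controls their translation. A few genes have paralogs used in particular tissues. The best known in muscle is *Rpl3l*, which takes the place of *Rpl3* in ribosomes of adult heart and skeletal muscle.

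Libraries totalled 61707889 to 80957325 counts, and 3 counts, the level below which a gene is treated as not detected, were worth 0.0357 to 0.0488 CPM. By the deposited coverage a count equals 75 aligned bases, and the read length is not given in the sources used here, so that whether a count is 1 read is unknown. The commonest low count was 4, so the floor of 3 counts may be less than 1 sequenced fragment. CPM is the count of a gene relative to the library total, scaled by TMM (trimmed mean of M values), and it depends on transcript length. TPM is also relative to the library but divided by length, so levels of different genes were compared in TPM only. All 9 skeletal muscle markers were detected in every library. The 4 markers of immune and endothelial cells summed to 3.06 to 4.18 CPM in CUG5 and 3.19 to 4.39 CPM in CUG200, nearly all of it *Cd68*, and *Ptprc* had 0 counts in all 6 libraries.

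Start sites of 65 of the 89 genes were found in the RefSeq promoter table (build GRCm38.p6), with 77 starts in all. A run of at least 6 pyrimidines that opened with C within 5 bases of the start, on the strand of the gene and after a purine, was found in 16 of the 65 genes (24.6%) and in 2187 of 27025 genes of the table (8.09%). Stretches that opened further from the start, as in *Rpl35*, or with T, as in *Rps9*, were not counted. Genes without the run can therefore still have a pyrimidine stretch near the start. The windows of 30 bases below hold 10 bases before the RefSeq start and 20 from it on, with the run in capitals. They show the *Rps27* family, *Rps10* and *Rps6* from the small subunit, *Rpl15* and *Rpl27a* from the large subunit, and then genes without the run, of which *Rps27l*, *Rpl26* and *Rpl37a* were higher in CUG200 and *Rpl7l1*, *Rps19bp1* and *Rpl3l* were not called or not tested. *Rps27* (chr3:90213629-90213658, minus strand) and *Rps27rt* (chr9:114982720-114982749, minus strand) have the same bases after the run.
Rps27: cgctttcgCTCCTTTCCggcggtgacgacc
Rps27rt: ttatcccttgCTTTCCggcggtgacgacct
Rps10: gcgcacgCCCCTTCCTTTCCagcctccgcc
Rps6: gaagtcgggCCTCTTTTTCgtgacgcctcc
Rpl15: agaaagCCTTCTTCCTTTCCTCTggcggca
Rpl27a: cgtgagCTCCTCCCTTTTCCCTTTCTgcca
Rps27l: cctccccgccgcctctatcccggaagttgc
Rpl26: ggcaacttacagaaccggaagtcgcgtgta
Rpl37a: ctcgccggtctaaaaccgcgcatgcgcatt
Rpl7l1: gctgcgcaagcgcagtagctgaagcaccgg
Rps19bp1: cggaagtagctcgccgcgtgtgggcggggc
Rpl3l: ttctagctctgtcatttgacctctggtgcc
The other windows are *Rps10* at chr17:27635225-27635254 (minus strand), *Rps6* at chr4:86857348-86857377 (minus strand), *Rpl15* at chr14:18270967-18270996 (minus strand), *Rpl27a* at chr7:109519185-109519214 (plus strand), *Rps27l* at chr9:66946076-66946105 (plus strand), *Rpl26* at chr11:68901556-68901585 (plus strand), *Rpl37a* at chr1:72711250-72711279 (plus strand), *Rpl7l1* at chr17:46782637-46782666 (minus strand), *Rps19bp1* at chr15:80264287-80264316 (minus strand) and *Rpl3l* at chr17:24727816-24727845 (plus strand).

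Of the windows shown, those of *Rps27l*, *Rpl26* and *Rps19bp1* hold the letters CGGAAG, the core of sites bound by ETS factors. CGGAAG or its reverse complement CTTCCG, searched on both strands over 250 bases before to 50 bases after the start, was present in 42 of the 65 genes (64.6%) and in 18.8% of all genes in the table. These matches describe the letters and not a bound site.

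Ribosomal protein mRNAs took a larger share of the RNA in CUG200 than in CUG5. The 89 genes held 2.94%, 2.84% and 2.63% of the counts in CUG5 libraries 1, 2 and 3, and 4.30%, 3.84% and 3.77% in CUG200 libraries 1, 2 and 3. In TPM, where each gene is divided by its length in the same way in every library, they held 6.25%, 5.83% and 5.28% in CUG5 and 8.06%, 7.42% and 7.81% in CUG200. Both measures put every CUG200 library above every CUG5 library. In bulk RNA, a change in the number of cells of a type and a change in RNA per cell cannot be told apart.

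Both subunits took part. By mean TPM over the 6 libraries, 76 of the 89 members were above 100 TPM and 21 were above 1000 TPM. The large-subunit names held 3.65%, 3.38% and 3.08% of the TPM in CUG5 and 4.65%, 4.27% and 4.46% in CUG200. The small-subunit names held 2.59%, 2.45% and 2.20% in CUG5 and 3.42%, 3.15% and 3.35% in CUG200. In each subunit the lowest CUG200 library stood above the highest CUG5 library.

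**Figure D1:**
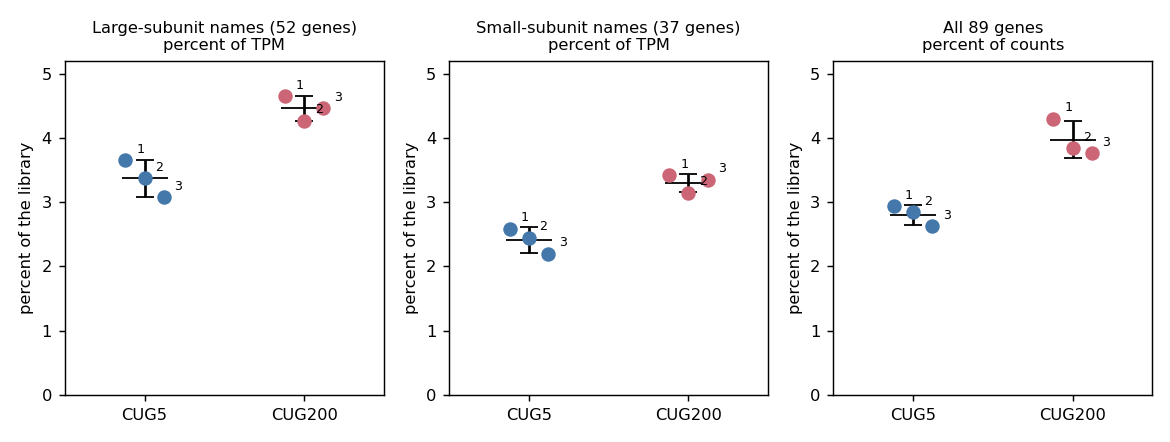
Share of the library held by ribosomal protein genes, in percent of TPM for the large-subunit and the small-subunit names and in percent of counts for all 89 genes. Each numbered point is 1 library, and bars give the mean ± SD of 3 libraries. In all 3 panels the CUG200 libraries lie above the CUG5 libraries, from 3.77% to 4.30% against 2.63% to 2.94% of the counts.

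Of the 89 genes, 84 passed the filter on low counts and were tested. By edgeR's quasi-likelihood test at an adjusted p under 0.05, 61 of the 84 were higher in CUG200, against a background of 7.13% of the 19005 genes tested. No member was lower by edgeR or by DESeq2, where 8.73% of all tested genes were lower by edgeR. At an unadjusted p under 0.05, 1 member (*Rpl7l1*) was lower and 75 were higher. The fold was modest: the called members ran from 1.25-fold to 1.79-fold, and none passed the cutoff of an absolute log2 fold change over 1 as well, which 2.18% of all tested genes did in either direction.

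The shift was broad. The log2 fold change was above 0 in 82 of the 84 tested genes, with a median of 0.54 (1.46-fold) beside 0.015 over all tested genes. In 74 members every CUG200 library stood above every CUG5 library, beside 17.9% of all tested genes, and in none did every CUG200 library stand below, beside 19.3%. In the other 10 the groups overlapped. Large-subunit names had 34 of 49 tested genes higher and a median log2 fold change of 0.50, and small-subunit names had 27 of 35 higher and a median of 0.61. Without paralogs, pseudogenes and *Rps19bp1*, which is not a ribosomal protein, 73 protein-coding genes remained, 55 of them higher and all 73 with a log2 fold change above 0. Their medians were 0.50 for the 43 large-subunit and 0.62 for the 30 small-subunit genes.

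**Figure D2:**
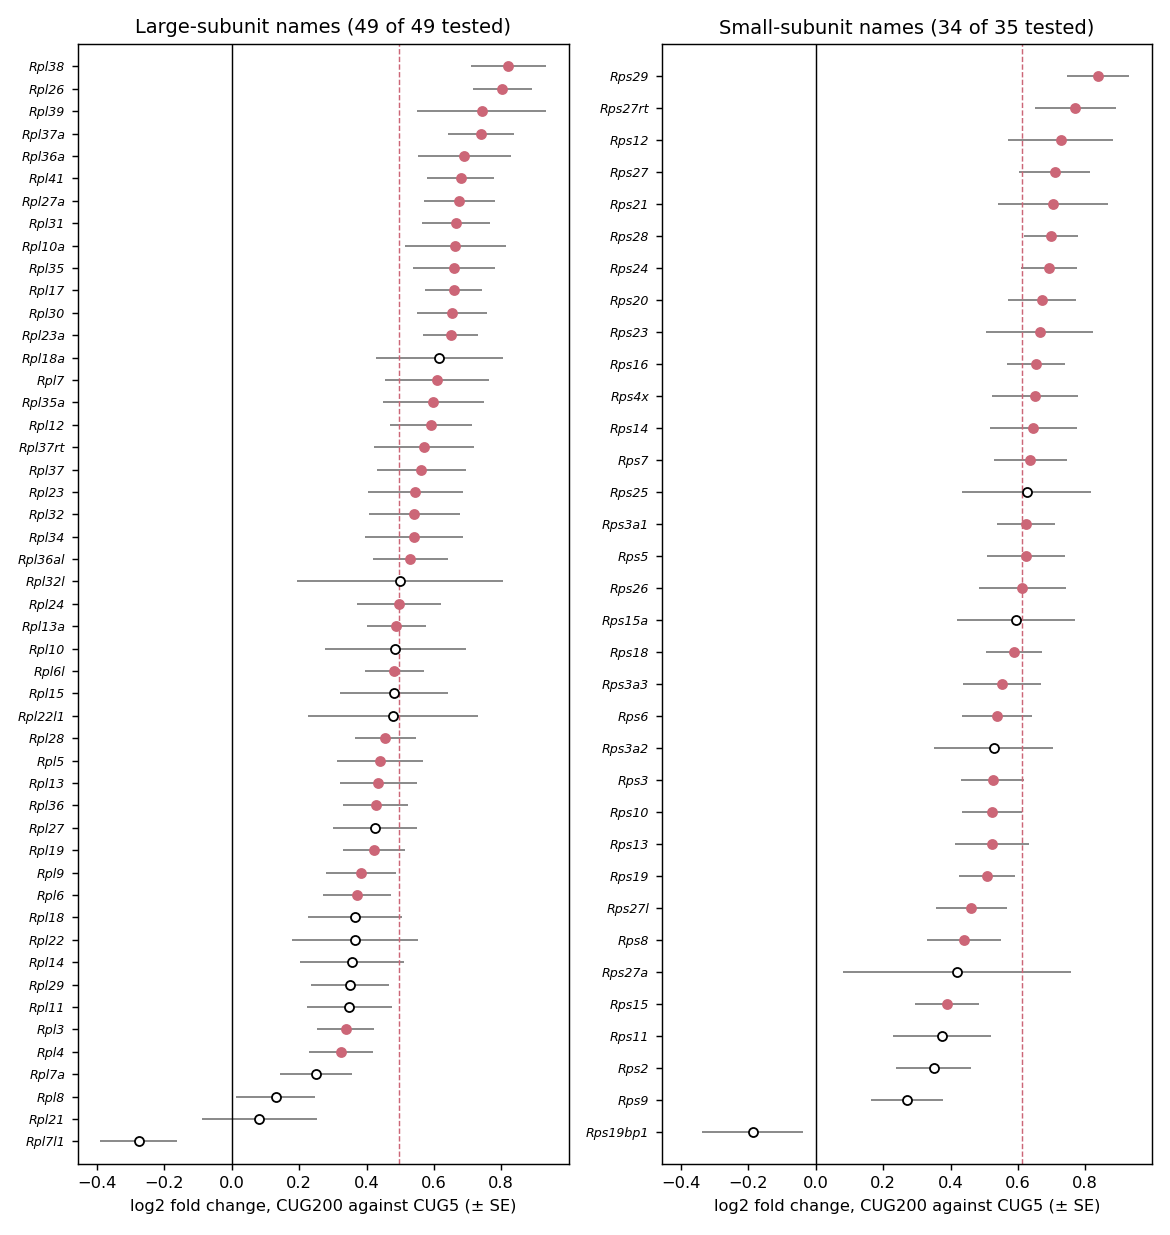
Log2 fold change of CUG200 against CUG5 (x axis) for all but 1 of the tested genes (y axis), with standard errors, for large-subunit and small-subunit names. Filled points are genes called higher by edgeR at an adjusted p under 0.05, open points are not called, and the dashed line is the median (0.50 and 0.61). All genes drawn but *Rpl7l1* and *Rps19bp1* lie to the right of 0.

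Single libraries carried different amounts of the shift. CUG200 library 1 had the highest CPM in 70 of the 84 genes, and CUG5 library 3 the lowest in 54. The count of higher members was 57 without CUG200 library 1 and 68 without CUG200 library 3. It was 33 without CUG5 library 1, without CUG5 library 2 or without CUG200 library 2, and 27 without CUG5 library 3. In these fits 6.40%, 8.52%, 3.19%, 3.35%, 3.01% and 2.74% of all tested genes were higher without CUG200 library 1, CUG200 library 3, CUG5 library 1, CUG5 library 2, CUG200 library 2 and CUG5 library 3, respectively. The same 24 members were called in each of the 6 fits. The median log2 fold change lay between 0.40 and 0.62 for large-subunit names and between 0.51 and 0.66 for small-subunit names across these fits.

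Skeletal muscle markers moved with the result, in the opposite direction. Of 9, 8 were lower (88.9%, beside 8.73% of all tested genes), with a median log2 fold change of -0.84. The summed level of the 9 was 11862 to 13093 CPM in CUG5 and 6133 to 8218 CPM in CUG200. *Myh3*, the embryonic myosin heavy chain, was at 1410, 1180 and 1540 CPM in CUG5 and 451, 526 and 672 CPM in CUG200 (log2 fold change -1.32, edgeR adjusted p = 0.0027), and *Mymk*, the fusion factor, was not called (-0.55, edgeR adjusted p = 0.304). Of the 3 fibroblast or mesenchymal markers, *Col1a1* was higher (log2 fold change 1.06, edgeR adjusted p = 0.000916), *Pdgfra* was not called (0.31, edgeR adjusted p = 0.116) and *Thy1* had 0 counts in 5 libraries and 4 in the other. Their summed level was 278 to 301 CPM in CUG5 and 559 to 648 CPM in CUG200. The part of differentiation in the ribosomal protein result was not tested. Other protein-coding genes with transcripts of up to 1000 bases held 7.77% to 9.04% of the counts in CUG5 and 8.62% to 10.5% in CUG200, and genes of the mitochondrial genome held 9.04% to 12.6% and 8.90% to 13.5%, so that on both measures the groups overlapped.

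*Rps29* had the largest fold change of all members. It encodes a small zinc-binding protein of the head of the small subunit and lies at chr12:69157722-69159186. Its level was 112, 108 and 105 CPM in CUG5 and 210, 197 and 174 CPM in CUG200. The groups were far apart, and the log2 fold change was 0.84 ± 0.093 (SE, n = 3 per group, edgeR adjusted p = 0.00198). *Rps28*, a protein near the mRNA exit of the small subunit, was at 138, 142 and 142 CPM in CUG5 and 238, 230 and 216 CPM in CUG200, with a log2 fold change of 0.70 ± 0.079 (edgeR adjusted p = 0.00211). Its CUG5 libraries differed by only a few CPM.

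*Rps24* was the most abundant member, with a mean of 3370 TPM over all 6 libraries. It was at 2800, 2850 and 2610 TPM in CUG5 and at 3870, 3850 and 4260 TPM in CUG200, so that the groups were well apart on this scale too. Its log2 fold change from counts was 0.69 ± 0.084 (edgeR adjusted p = 0.00252). *Rps16*, a protein of the small-subunit head, went from 235, 252 and 242 CPM to 409, 386 and 352 CPM (log2 fold change 0.65, edgeR adjusted p = 0.00325). *Rps20*, also of the head and after *Rps19bp1* the tested small-subunit name with the lowest mean TPM (94.3), was at 159, 150 and 148 CPM in CUG5 and 272, 242 and 215 CPM in CUG200. Its groups were apart, with a log2 fold change of 0.67 ± 0.10 (edgeR adjusted p = 0.00485), and it shares exonic bases with another gene. *Rps4x* and *Rps15*, both among the 3 most abundant small-subunit members, were both higher: the log2 fold change was 0.65 ± 0.13 for *Rps4x* (edgeR adjusted p = 0.0129) and 0.39 ± 0.095 for *Rps15* (edgeR adjusted p = 0.0269), and the difference between them was not tested.

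Among the proteins of the mRNA channel and the decoding site, 3 of 5 were higher, beside 72.6% of all tested members and 7.13% of all tested genes. *Rps3*, which lines the mRNA entry, rose by a log2 fold change of 0.53 (edgeR adjusted p = 0.00868), *Rps23*, which reaches into the decoding centre, by 0.66 (edgeR adjusted p = 0.0271), and *Rps15* as given above. *Rps2* and *Rps9* had log2 fold changes of 0.35 and 0.27 (edgeR adjusted p = 0.0663 and 0.122) and were not called. *Rps2* was at 54.3, 50.4 and 47.1 CPM in CUG5 and at 74.7, 60.4 and 58.3 CPM in CUG200, without overlap of the groups. In a second fit that takes the trend with transcript length out of each library, 1 of the 5 was higher. The share was 34.5% of the tested members and 6.11% of all tested genes in that fit. The median log2 fold change of the 5 was 0.18 in place of 0.39. *Rps3* kept its call (edgeR adjusted p = 0.00863), and *Rps23* (edgeR adjusted p = 0.0785) and *Rps15* lost it. *Rps23* and *Rps15* were each called in 2 of the 6 fits that leave out a library.

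In the large subunit, proteins at the rim of the tunnel through which the new peptide leaves were higher in 8 of 9 cases (median log2 fold change 0.66), beside 72.6% of all tested members and 7.13% of all tested genes. In the fit without the length trend 5 of the 9 were higher, beside 34.5% of the tested members and 6.11% of all tested genes. Their median was 0.46. *Rpl26* was at 52.2, 54.0 and 55.6 CPM in CUG5 and 87.2, 104 and 91.5 CPM in CUG200, a log2 fold change of 0.80 ± 0.088 (edgeR adjusted p = 0.00198). *Rpl23a*, which docks chaperones and the signal recognition particle, was at 730, 749 and 714 CPM in CUG5 and 1180, 1180 and 1080 CPM in CUG200 (log2 fold change 0.65 ± 0.081, edgeR adjusted p = 0.0027). *Rpl17* was at 263, 294 and 290 CPM in CUG5 and 434, 464 and 437 CPM in CUG200 (log2 fold change 0.66 ± 0.084, edgeR adjusted p = 0.00285). In these 3 genes the lowest CUG200 library was far above the highest CUG5 library. *Rpl39*, the small protein inside the tunnel, had a wide spread in CUG200, with 260, 194 and 143 CPM beside 122, 118 and 118 CPM in CUG5 (log2 fold change 0.74 ± 0.19, edgeR adjusted p = 0.0376). It was called in 2 of the 6 fits that leave out a library, where the log2 fold change ran from 0.51 to 0.93, and not without the length trend (0.46, edgeR adjusted p = 0.143). *Rpl35*, at the same rim, was at 726, 726 and 651 CPM in CUG5 and 1310, 1040 and 972 CPM in CUG200 (log2 fold change 0.66 ± 0.12, edgeR adjusted p = 0.01), and *Rpl4*, which reaches into the tunnel wall, was the least changed of the called members at 0.32 (edgeR adjusted p = 0.0481) and was called in 1 of those 6 fits and not without the length trend (edgeR adjusted p = 0.0865). The exception was *Rpl22*, described with its paralog.

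*Rpl37a*, a zinc-binding protein of the large subunit, was at 218, 234 and 238 CPM in CUG5 and 426, 377 and 348 CPM in CUG200 (log2 fold change 0.74 ± 0.098, edgeR adjusted p = 0.00319). *Rpl41*, the shortest protein of the ribosome, was at 724, 718 and 681 CPM in CUG5 and 1280, 1080 and 1040 CPM in CUG200 (log2 fold change 0.68 ± 0.099, edgeR adjusted p = 0.00447). *Rpl19* was among the 3 most abundant large-subunit members and went from 765, 800 and 748 CPM to 1130, 1010 and 955 CPM (log2 fold change 0.42 ± 0.091, edgeR adjusted p = 0.0171). In all 3 genes the groups were apart, and *Rpl19* was called in 2 of the 6 fits that leave out a library.

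*Rpl5* and *Rpl11* form with 5S RNA the particle that binds Mdm2 when ribosome assembly fails. *Rpl5* was at 676, 660 and 615 CPM in CUG5 and 1050, 846 and 747 CPM in CUG200, a log2 fold change of 0.44 just inside the threshold (edgeR adjusted p = 0.0477) that was not called with the length trend taken out (edgeR adjusted p = 0.0515) and was called in 1 of the 6 fits that leave out a library. *Rpl11* was at 355, 278 and 335 CPM in CUG5 and 472, 393 and 368 CPM in CUG200, a log2 fold change of 0.35 that was not called (edgeR adjusted p = 0.0968). Diamond-Blackfan anemia is an inherited failure of red cell production from loss of 1 copy of a ribosomal protein gene. Of the 18 genes listed for it, 14 were higher, or 77.8% beside 72.6% of all tested members and 7.13% of all tested genes. With the length trend taken out 10 were higher, beside 34.5% of the tested members and 6.11% of all tested genes. In all 18 every CUG200 library stood above every CUG5 library, as in 74 of the 84 tested members and 17.9% of all tested genes. *Rps19*, the gene most often affected in that disease, was at 136, 141 and 140 CPM in CUG5 and 206, 205 and 182 CPM in CUG200 (log2 fold change 0.51 ± 0.083, edgeR adjusted p = 0.00658). *Rps7*, *Rps10* and *Rps26*, other small-subunit genes of the list, had log2 fold changes of 0.64, 0.52 and 0.61 and were called by edgeR.

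*Rps26*, a protein at the mRNA exit, differed in library order from most members. It was at 401, 536 and 493 CPM in CUG5 and 654, 814 and 719 CPM in CUG200, so that library 1 was the lowest of each group. It was called in 3 of the 6 fits that leave out a library and not with the length trend taken out (0.35, edgeR adjusted p = 0.087). On the large-subunit side of the list, *Rpl31* was at 408, 400 and 389 CPM in CUG5 and 718, 614 and 565 CPM in CUG200 (edgeR adjusted p = 0.00534). *Rpl35a* was at 115, 111 and 94.6 CPM in CUG5 and 198, 155 and 132 CPM in CUG200 (log2 fold change 0.60, edgeR adjusted p = 0.0303), and it was called in 2 of the 6 fits that leave out a library and not with the length trend taken out (0.30, edgeR adjusted p = 0.24). The 4 listed genes that were not called were *Rpl11*, *Rpl15*, *Rpl18* and *Rpl27*, with log2 fold changes of 0.35, 0.48, 0.37 and 0.43 (edgeR adjusted p = 0.0968, 0.0779, 0.113 and 0.0507). *Rpl15* was at 415, 349 and 334 CPM in CUG5 and 641, 468 and 425 CPM in CUG200, and *Rpl18* at 221, 210 and 163 CPM and 294, 225 and 247 CPM. In both, the gap between the groups was narrow beside the spread within CUG200.

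Of the 23 tested members that were not called, 21 had a log2 fold change above 0. The largest of these was 0.63 in *Rps25*, where the libraries spread from 146 to 214 CPM in CUG5 and from 209 to 319 CPM in CUG200, so that the groups overlapped (edgeR adjusted p = 0.0647). *Rps27a*, a fusion of ubiquitin with a ribosomal protein, was at 344, 320 and 172 CPM in CUG5 and 494, 366 and 259 CPM in CUG200, a spread within each group wider than the difference (edgeR adjusted p = 0.474). With the replicate number as a block *Rps25* and *Rps27a* were called higher (edgeR adjusted p = 0.0105 and 0.0343). By DESeq2 *Rps25* was called (adjusted p = 0.00296) and *Rps27a* was not (adjusted p = 0.475). *Rps25* and *Rps27a* were singled out after their values were seen. *Rpl21* had the lowest mean TPM but 1 among the large-subunit members tested, with 8.26, 6.56 and 7.91 CPM in CUG5 and 9.83, 7.32 and 6.92 CPM in CUG200, and its direction depended on the scale (log2 fold change 0.082 from counts and -0.032 on log2(TPM + 1), edgeR adjusted p = 0.8 from counts). Summed with its named pseudogenes, *Rpl21* had a log2 fold change of 0.40 that was not called (edgeR adjusted p = 0.111). The counting may have placed reads of *Rpl21* on these copies, which was not tested, so its low level is uncertain. *Rps19bp1*, a nucleolar partner of *Rps19* that the name rule takes in, was at 22.0, 20.3 and 17.2 CPM in CUG5 and 20.9, 16.4 and 15.0 CPM in CUG200 (log2 fold change -0.19, edgeR adjusted p = 0.453).

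Paralogs were compared with the gene they resemble. *Rpl3l*, the muscle paralog, was hardly detected. It had 18, 8 and 0 counts in CUG5 and 6, 5 and 0 counts in CUG200, where 3 counts is the floor, and it failed the filter, so no fold is given. *Rpl3* was at 383, 379 and 339 TPM in CUG5 and at 422, 397 and 426 TPM in CUG200, and its log2 fold change was among the smallest of the called members at 0.34 ± 0.085 (edgeR adjusted p = 0.0297). *Rpl3* lost its call with the trend of annotated length taken out (0.22, edgeR adjusted p = 0.0817), kept it with expression-weighted length (0.31, edgeR adjusted p = 0.0302), lost it on log2(TPM + 1) (limma adjusted p = 0.322), and kept it in 2 of the 6 fits that leave out a library. *Rpl3l* reached at most 0.278 TPM in any library, so nearly all *Rpl3*-type mRNA in these cells was *Rpl3*. *Rpl10l* and *Rpl39l*, known from testis, had 0 counts in all 6 libraries, and *Rps4l*, annotated as a pseudogene, had 12 counts in CUG200 library 3 and 0 in the other 5. *Rps12l1*, another annotated pseudogene, had 0 counts in all 6 libraries. These 5 genes were the members that failed the filter.

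*Rpl7l1*, a paralog of *Rpl7* with a role in the assembly of the large subunit, had a negative fold change that was not called. *Rpl7* was at 750, 731 and 651 CPM in CUG5 and 1370, 987 and 894 CPM in CUG200 (log2 fold change 0.61 ± 0.16, edgeR adjusted p = 0.0327). *Rpl7* was called in 2 of the 6 fits that leave out a library (log2 fold changes of 0.42 to 0.73), and not with the length trend taken out (0.45, edgeR adjusted p = 0.0631) or on log2(TPM + 1) (limma adjusted p = 0.0775). *Rpl7l1* was at 120, 125 and 111 CPM in CUG5 and 114, 94.2 and 85.6 CPM in CUG200, with the lowest log2 fold change of all members, -0.28 (edgeR adjusted p = 0.138). The groups of *Rpl7l1* overlapped through CUG200 library 1, and without that library *Rpl7l1* was called lower (log2 fold change -0.39, edgeR adjusted p = 0.026). In TPM the groups did not overlap, with 84.5, 80.1 and 69.4 TPM in CUG5 and 63.3, 55.4 and 58.0 TPM in CUG200. The difference between *Rpl7* and *Rpl7l1* was not tested.

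*Rpl22* is known to repress its paralog *Rpl22l1*, and both had positive fold changes that were not called. *Rpl22* was at 180, 106 and 146 CPM in CUG5 and 211, 178 and 167 CPM in CUG200 (log2 fold change 0.36, edgeR adjusted p = 0.236). *Rpl22l1* was at 31.8, 35.7 and 30.3 CPM in CUG5 and 57.2, 51.1 and 27.8 CPM in CUG200 (log2 fold change 0.48, edgeR adjusted p = 0.26). *Rpl22l1* had its lowest level in CUG200 library 3, and without that library it was called higher (log2 fold change 0.73, edgeR adjusted p = 0.00345). *Rpl10* was not called by edgeR (log2 fold change 0.49, adjusted p = 0.168) but was by DESeq2 (adjusted p = 0.0368) and with the replicate block (edgeR adjusted p = 0.0459), and its groups did not overlap, with 390, 393 and 280 CPM in CUG5 and 650, 439 and 399 CPM in CUG200.

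The 3 genes of the *Rps27* family were higher in CUG200. *Rps27* was at 982, 926 and 865 TPM in CUG5 and 1420, 1380 and 1330 TPM in CUG200, *Rps27l*, a target of p53, at 203, 191 and 171 TPM and 249, 230 and 231 TPM, and *Rps27rt*, a gene without introns, at 87.6, 105 and 92.1 TPM and 133, 159 and 154 TPM. The groups did not overlap in any of the 3 genes, and *Rps27* was the highest in all 6 libraries. The log2 fold changes from counts were 0.71, 0.46 and 0.77 (edgeR adjusted p = 0.00481, 0.0215 and 0.0056). With the length trend taken out *Rps27* and *Rps27rt* kept their call (edgeR adjusted p = 0.0309 and 0.0232) and *Rps27l* lost it (log2 fold change 0.17, edgeR adjusted p = 0.297). With expression-weighted length *Rps27* and *Rps27rt* were not called either (0.25 and 0.33, edgeR adjusted p = 0.0798 and 0.0661). *Rps27l* was called in 2 of the 6 fits that leave out a library. *Rps27rt* is by its name a retrocopy of *Rps27*, so the counting may have divided reads between them. *Rpl36a* and *Rpl36al* also rose, by log2 fold changes of 0.69 and 0.53 (edgeR adjusted p = 0.0136 and 0.016). With the length trend taken out *Rpl36a* lost its call (edgeR adjusted p = 0.114). *Rpl36al* kept it with annotated length (edgeR adjusted p = 0.0358) and lost it with expression-weighted length (0.17, edgeR adjusted p = 0.272), on log2(TPM + 1) (limma adjusted p = 0.0557) and in 3 of the 6 fits that leave out a library.

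**Figure D3:**
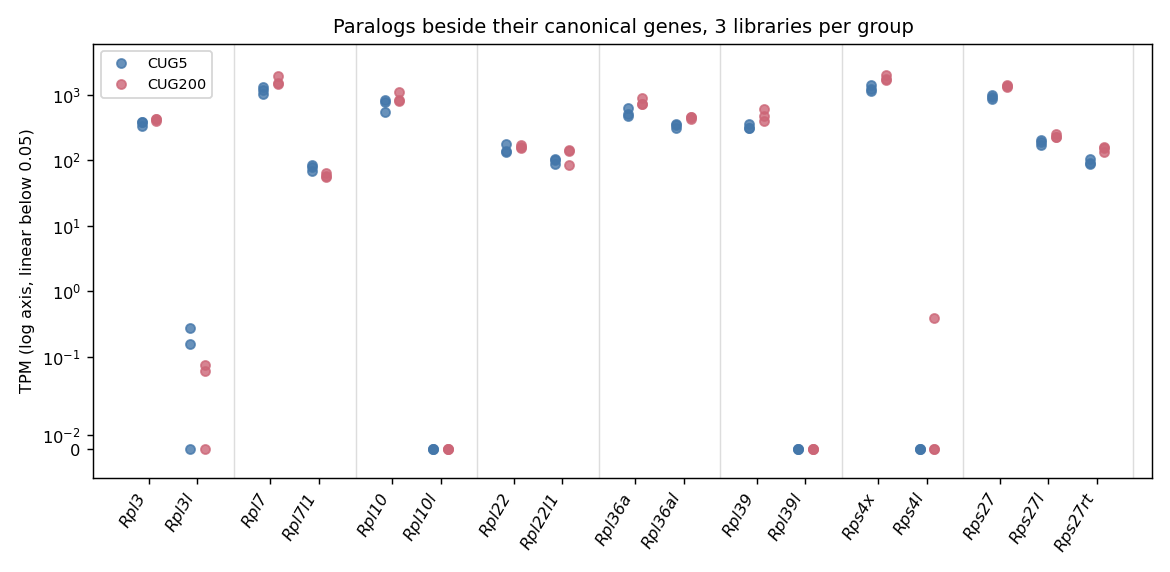
TPM of paralogs beside the gene they resemble, on a log axis that is linear below 0.05. Each point is 1 library, with CUG5 and CUG200 side by side and 3 libraries per group. *Rpl3l*, *Rpl10l*, *Rpl39l* and *Rps4l* lie at or below 0.392 TPM, while the other genes lie at 55.4 TPM or above.

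Ribosomal protein genes have many processed pseudogenes, and reads from the parent gene can be counted on a copy. The 295 genes named as ribosomal protein pseudogenes held 0.487%, 0.457% and 0.437% of the counts in CUG5 and 0.664%, 0.599% and 0.605% in CUG200. Of the 134 that passed the filter, 45 were higher, or 33.6% beside 7.13% of all tested genes, with a median log2 fold change of 0.59. With the length trend taken out 12 of the 134 were higher, beside 6.11% of all tested genes. Their median was then 0.30 (their median weighted length is 482 bases). Among the members themselves, 7 are annotated as pseudogenes although their names lack the mark, and 5 of these were tested. *Rpl6l*, *Rps3a3* and *Rpl37rt* were higher, and *Rpl32l* and *Rps3a2* were not called (edgeR adjusted p = 0.312 and 0.0825), with a median log2 fold change of 0.53 over the 5. None of the 5 was called with the length trend taken out. Summing each named pseudogene with its parent gene, where 294 could be assigned, gave 63 higher members in place of 61. Exonic bases were shared with another gene in 26 of the 84 tested members, and 20 of these were called.

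Transcript length moved with the result. The expression-weighted length (count divided by TPM) had a median of 796.5 bases in the members and 2433 bases in all tested genes. Among other protein-coding genes, the median log2 fold change fell from 0.31 at up to 500 bases, 0.32 at 500 to 750 bases and 0.21 at 750 to 1000 bases to 0.078 at 1000 to 1500 bases and -0.14 above 4000 bases. Of those other genes, 26.5%, 26.8% and 19.3% in the 3 shortest classes were higher. In the same 3 classes the members had medians of 0.70, 0.54 and 0.52, with 9 of 10, 21 of 25 and 20 of 31 higher. At 1000 to 1500 bases the members had a median of 0.60, with 6 of 8 higher, beside 11.5% of the other genes. Within the members the fold change and the weighted length had a Spearman rho of -0.37 (n = 84 genes, which share the 6 libraries).

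**Figure D4:**
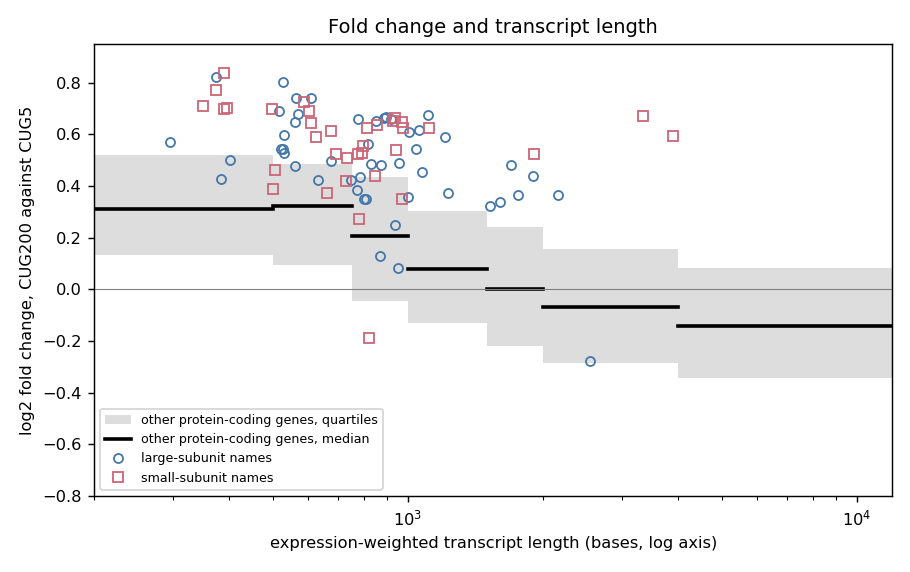
Log2 fold change of CUG200 against CUG5 (y axis) by expression-weighted transcript length (x axis, log scale). Circles and squares are single large-subunit and small-subunit members, black lines are medians of other protein-coding genes in 7 length classes, and grey boxes are their quartiles. In each class up to 4000 bases the median of the members lies above that of the other genes, with 0.70 against 0.31 in the shortest class.

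When the trend with annotated length was taken out of each library before the test, 29 of the 84 members were higher by edgeR, beside 6.11% of all tested genes, and the same 29 were among the 61. The medians were then 0.34 for large-subunit and 0.39 for small-subunit names. *Rps20* had the largest log2 fold change in this fit, 0.74 (edgeR adjusted p = 0.0038), and *Rps24* kept one of 0.61 (edgeR adjusted p = 0.00277), *Rpl26* of 0.53 (edgeR adjusted p = 0.00554) and *Rps29* of 0.52 (edgeR adjusted p = 0.00925). *Rpl19* and *Rps15* were no longer called, at 0.18 and 0.10 (edgeR adjusted p = 0.185 and 0.522). The values of single genes depend on the length used. Annotated length is 3706 bases for *Rps20* and 1613 bases for *Rps24*, beside weighted lengths of 3338 and 602 bases. *Rpl17* (1326 and 775 bases) was at 0.54 with annotated and at 0.41 with expression-weighted length (edgeR adjusted p = 0.00632 and 0.0165). *Rpl26* was at 0.44 with expression-weighted length (edgeR adjusted p = 0.0163). The part of library preparation or RNA quality in the trend was not tested.

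Other genes of the translation machinery did not all move with the members. Of the 6 ribosomal protein genes that lack the digit in their name, 4 were higher (66.7%, beside 72.6% of the tested members and 7.13% of all tested genes). The largest was *Rplp1*, a protein of the stalk that recruits elongation factors, at 474, 495 and 508 CPM in CUG5 and 904, 939 and 830 CPM in CUG200 (log2 fold change 0.86 ± 0.085, edgeR adjusted p = 0.00156). *Rpsa* and *Fau* were higher by log2 fold changes of 0.66 and 0.59 (edgeR adjusted p = 0.00617 and 0.00574). *Rplp0*, the base of the stalk, was not called (0.38, edgeR adjusted p = 0.125), and neither was *Rplp2*, the partner of *Rplp1* (-0.14, edgeR adjusted p = 0.485).

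Among 18 elongation factors and other mRNAs with a terminal oligopyrimidine tract, 2 were higher and 2 lower. That is 11.1% each way, beside 7.13% and 8.73% of all tested genes, with 0.16 as the median log2 fold change. With the length trend taken out 1 was higher and none lower by edgeR, beside 6.11% and 7.09% of all tested genes. *Eef1a1*, which brings tRNA to the ribosome, and *Eif3k*, a subunit of initiation factor 3, rose by log2 fold changes of 0.36 and 0.38 (edgeR adjusted p = 0.0315 and 0.0183). *Eef2*, which moves the ribosome along the mRNA, and *Eif4b*, a helper of the initiation helicase, had log2 fold changes of -0.33 and -0.27 (edgeR adjusted p = 0.0407 and 0.0484), and both calls were lost with the length trend taken out. Among members with a start site in RefSeq, 12 of 16 tested genes with the pyrimidine run were higher (median log2 fold change 0.57) and 34 of 46 without it (median 0.53). Both classes rest on the RefSeq start and on the limits of the search, and the part of the tract was not tested. With CGGAAG or CTTCCG in the window, 33 of 41 were higher (median 0.59), and without it 13 of 21 (median 0.48). The shares higher were 72.6% of all tested members and 7.13% of all tested genes.

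Genes for the assembly of ribosomes were lower more often than higher. Of 51 ribosome biogenesis genes, 18 were lower (35.3%, beside 8.73% of all tested genes) and 3 higher (5.88%, beside 7.13%), with a median log2 fold change of -0.26. *Nolc1*, a chaperone of small nucleolar particles, was at 80.0, 80.3 and 83.5 CPM in CUG5 and 42.4, 41.9 and 54.0 CPM in CUG200 (log2 fold change -0.82, edgeR adjusted p = 0.00321). *Ubtf*, the factor that opens rRNA genes, was at 50.7, 55.9 and 55.2 CPM in CUG5 and 34.9, 32.0 and 32.7 CPM in CUG200 (log2 fold change -0.70, edgeR adjusted p = 0.0024). *Polr1a*, the largest subunit of RNA polymerase I, and *Fbl*, the methyltransferase of rRNA, had log2 fold changes of -0.61 and -0.42 (edgeR adjusted p = 0.00617 and 0.0305). The 3 higher genes were *Nop10*, *Imp3* and *Sbds*. With the length trend taken out, 18 of the list were lower and 2 higher, beside 7.09% and 6.11% of all tested genes.

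Lists of other large complexes were counted in the same way. Mitochondrial ribosomal proteins had 7 of 78 genes higher (8.97%) and 4 lower (5.13%), near the 7.13% and 8.73% of all tested genes, with 0.063 as the median log2 fold change. With the length trend taken out 4 were higher and 12 lower, beside 6.11% and 7.09% of all tested genes. The median was then -0.045. Nuclear-encoded respiratory chain subunits, whose median weighted length of 740 bases is near that of the members, had 21 of 77 higher (27.3%) and 5 lower (6.49%), with a median of 0.24. Once the length trend was taken out, the respiratory chain list had 2 higher and 8 lower, beside 6.11% and 7.09% of all tested genes. Its median was then 0.025. Proteasome subunits had 2 of 36 higher and 2 lower (5.56% each way). With the length trend taken out 1 was higher and 3 lower, beside 6.11% and 7.09% of all tested genes.

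**Figure D5:**
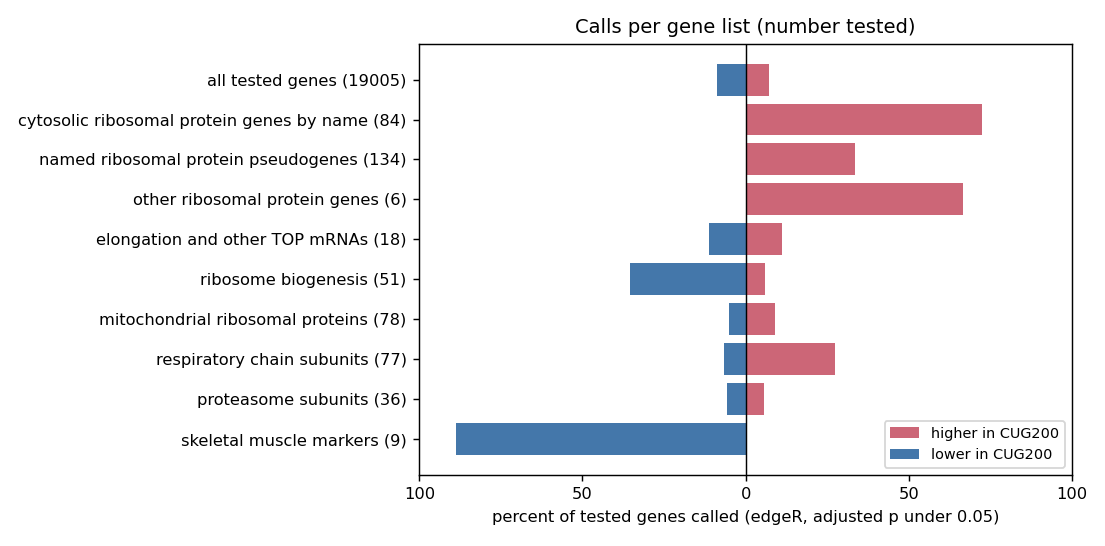
Percent of tested genes called higher (right) or lower (left) in CUG200 by edgeR for each gene list, with the number tested in brackets. The members have 72.6% higher, beside 7.13% of all tested genes, and ribosome biogenesis has 35.3% lower, beside 8.73%.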

How the data were processed

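Total RNA of 6 C2C12 libraries (3 CUG5, 3 CUG200) was analysed, grouped by the sample labels. The authors trimmed reads with Trim Galore, aligned them to GRCm38 with HISAT2 and quantified genes with StringTie, and they deposited raw counts per gene. For each library the authors also deposited coverage (signal), FPKM and TPM, which are scaled for length. The deposited coverage multiplied by length and divided by 75 equalled the count within 1 for 99.3% of genes with 1 transcript. The FPKM values were not tested. The strand setting of the counting was not given in the sources used here.

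Counts were joined to gene names by gene ID. Genes passing filterByExpr (minimum count 10, 19005 genes) were scaled by TMM and tested with edgeR 4.0.16 (quasi-likelihood, robust, no covariate, 4 residual degrees of freedom, R 4.3.3), with Benjamini-Hochberg adjustment over all genes tested and a threshold of 0.05. A fold over 1 on the log2 scale was the second cutoff. Medians over members are descriptions without a test. Alternatives were DESeq2 1.42.0 and its size factors, library totals, TMM without ribosomal protein genes, other filters, counts divided by 4, sums with pseudogenes, limma 3.58.1 on log2(TPM + 1) and log2(TPM + 0.1), removal of a lowess trend of each library with annotated length, the replicate number as a block, and each library left out in turn. A length trend from non-members only and one with expression-weighted length were chosen after seeing the data. No replicate pair agreed within sampling noise (chi-square per degree of freedom 9.63 to 36.7). Intervals from 3 counts cover counting error only. The code was tested on simulated data.

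The members and lists were chosen with earlier results of these data known. Genes named individually were paralogs and the genes they resemble, the 4 smallest p-values per subunit and direction among called genes, the 3 highest and 2 lowest members of each subunit by TPM, *Rps19bp1*, members of the fixed lists, and those said to be singled out. Some genes that enter the counts are not reported here by name. Positions are GRCm38 (GENCODE M21), and start sites are from RefSeq. Tools also included Python 3.11.15, pandas 2.3.3 and matplotlib 3.10.9.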

Additional observations from a re-analysis of the deposited data

How the results depend on the processing

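The count of 61 higher members was 60 to 73 with DESeq2 (73), other size factors, other filters, counts divided by 4 or sums with pseudogenes. In those fits 4.41% to 10.1% of all tested genes were higher. The count of members was 29 with the length trend removed, 33 with the trend taken from other genes and 29 with expression-weighted length. It was 31 on log2(TPM + 0.1) and 30 on log2(TPM + 1). The share of all tested genes called higher, 7.13% in the reported fit, was 6.11%, 6.26%, 6.33%, 2.28% and 2.25% in these 5 fits. With libraries left out in turn it ran from 27 to 68, and the count of lower members from 0 to 1 (*Rpl7l1*). In each fit no member passed both cutoffs. The median log2 fold change of large-subunit names was 0.34 with the length trend removed and 0.31 with expression-weighted length. That of small-subunit names was 0.39 with the length trend removed, 0.42 with the trend of other genes removed, 0.32 with expression-weighted length, and 0.49 on both log2(TPM + 0.1) and log2(TPM + 1). *Rpl21* changed sign: its log2 fold change was -0.033 on log2(TPM + 0.1), -0.032 on log2(TPM + 1), -0.10 with expression-weighted length, and from -0.077 to 0.18 with libraries left out, -0.077 without CUG200 library 1 and -0.014 without CUG5 library 2. Part of the drop with a library left out goes with fewer samples, and the other causes were not tested.

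With the replicate block 68 members were higher, beside 6.98% of all tested genes. Over all tested genes, same-numbered libraries of the groups correlated at 0.0675, 0.0222 and 0.0263 in their deviations from the group means. CUG5 library 3 correlated best with CUG200 library 2 (0.0451). Such values over all genes cannot show whether the members vary together in same-numbered libraries. The median log2 deviation of large-subunit names fell from library 1 to library 3 in CUG5 (-0.204, -0.249 and -0.319) and in CUG200 (0.484, 0.189 and 0.0628). That of small-subunit names did so in CUG200 (0.446, 0.243 and 0.13) but not in CUG5 (-0.26, -0.231 and -0.349). Leaving out a library took the call from 37 of the 61 members in at least 1 of the 6 fits. With 3 libraries per group, small fold changes near the threshold are uncertain. Depth limits *Rpl3l*, *Rpl10l*, *Rpl39l*, *Rps4l* and *Rps12l1*, which had at most 18 counts in a library.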
